A study of Mus musculus with 26 samples.

Results

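The 41 genes described here act in meiotic prophase, the stage in which germ cells pair and recombine their chromosomes. They were chosen by name and known role and make up 41 of the 54589 genes in the series. They fall into 3 genes of meiotic entry, 4 of the meiotic cohesin ring, 9 of the synaptonemal complex and chromosome axis, 6 of double-strand break formation, 14 of recombination, 3 of telomere attachment and 2 pachytene transcription factors. The testis table held a row for 40 of them (Mei4 was not analysed here in testis), and the 2 cell culture tables held all 41.

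The series holds RNA-seq of 26 mouse samples bearing on Tex10, a nuclear protein, in primordial germ cell-like cells (PGCLCs, germ cell precursors made in culture) and in spermatogenesis. Testis cells of C57BL/6N background came from wildtype (WT) mice and from mice with a Tex10 conditional knockout (cKO), 2 libraries each, all labelled untreated. The Cre driver and the age of the animals are not given in the sources used here. Cultured cells were of 129Sv/J background: epiblast-like cells (EpiLCs), the starting population, labelled untreated (2 libraries), and PGCLCs at day 2 and day 4 with the solvent DMSO or with 500 nM dTAG13, a small molecule that directs tagged proteins to degradation (2 libraries each). The tagged line's genotype is not given in the sources used here, and RNA does not check the loss of a protein. A further set held 1 empty-vector (EV) line and 2 Tex10 overexpression clones, each sampled once at the EpiLC stage and on days 2, 4 and 6 of induction, all labelled untreated. The promoter of the overexpression vector is not given in the sources used here. Values are TMM-scaled CPM, reads of a gene in proportion to the library's reads (CPM) after the authors' scaling between libraries. Libraries held 5055362 to 8564563 reads in the dTAG13 table, 5227287 to 7484600 in the overexpression table and 6058987 to 7272313 in testis. A count of 3 reads, taken as a floor that covers counting error only, equalled 0.299 to 0.56. The labels number the samples without saying that they came from separate animals or cultures, so p-values measure the spread between these samples, which may be technical.

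Meiosis begins when a germ cell responds to retinoic acid by expressing Stra8, a transcriptional activator of the prophase program, while the RNA-binding partners Meioc and Ythdc2 end the mitotic program. Cohesin rings built with Rec8, Rad21l, Stag3 and Smc1b form the chromosome axis, on which Hormad1, Sycp2 and Sycp3 assemble and which Sycp1, the Syce proteins and Tex12 zip together. Spo11 cuts the DNA at sites marked by Prdm9, Dmc1 drives strand exchange with the homolog, Msh4, Msh5, Rnf212 and Hfm1 lead a subset of events to crossovers, and Majin, Terb1 and Terb2 tie telomeres to the nuclear envelope so that chromosomes can pair. Mybl1 and Tcfl5 are transcription factors active in pachytene spermatocytes, the cells of mid prophase.

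Promoters of 8 members are shown because these genes were called in cells treated with dTAG13 at day 4 with a log2 fold change of at least 1 in either direction, Meioc, Rec8 and Hormad1 upward and Stra8, Syce2, Mei4, Stag3 and Dmc1 downward. Stag3 and Mei4 fell short of that size without day 4 DMSO replicate 2 or dTAG13 replicate 1, and Stag3 also with median-ratio scaling, another scaling between libraries (-0.91). Mybl1 and Tex15 also met the rule, and their promoters were not at hand. Each stretch runs from 250 bases before to 50 bases after a start that RefSeq's promoter table lists for the gene (build GRCm38.p6) and is written 5′ to 3′ on the gene's strand. These starts lie inside the annotated gene span, 0 bases (Hormad1, Syce2 and Mei4), 50 (Dmc1), 164 (Rec8), 234 (Meioc), 785 (Stra8) and 7995 (Stag3) from its upstream end, so the stretches of Stra8 and Stag3 are not at the outermost start of the gene. Capitals mark the E-box letters CACGTG and the E2F letters TCCCGC on either strand (GCGGGA on the opposite strand).
Meioc, chr11:102665335-102665634, plus strand: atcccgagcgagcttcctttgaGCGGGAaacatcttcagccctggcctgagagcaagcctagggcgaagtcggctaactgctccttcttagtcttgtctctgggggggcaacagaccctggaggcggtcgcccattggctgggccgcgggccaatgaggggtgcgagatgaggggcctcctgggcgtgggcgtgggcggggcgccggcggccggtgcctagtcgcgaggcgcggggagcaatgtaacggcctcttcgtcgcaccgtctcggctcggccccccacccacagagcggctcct
Rec8, chr14:55617916-55618215, plus strand: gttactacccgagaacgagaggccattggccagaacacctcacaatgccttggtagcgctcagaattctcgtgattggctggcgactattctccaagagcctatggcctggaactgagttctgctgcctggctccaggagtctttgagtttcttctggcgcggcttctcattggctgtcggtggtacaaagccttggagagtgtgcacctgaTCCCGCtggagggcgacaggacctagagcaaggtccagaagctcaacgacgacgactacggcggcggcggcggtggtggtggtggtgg
Hormad1, chr3:95559427-95559726, plus strand: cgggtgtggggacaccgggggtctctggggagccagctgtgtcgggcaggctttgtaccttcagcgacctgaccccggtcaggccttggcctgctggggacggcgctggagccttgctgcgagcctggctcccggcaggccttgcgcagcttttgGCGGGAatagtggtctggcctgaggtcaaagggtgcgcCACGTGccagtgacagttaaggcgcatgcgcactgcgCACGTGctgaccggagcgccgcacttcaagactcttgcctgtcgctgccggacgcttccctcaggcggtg
Stra8, chr6:34920698-34920997, plus strand: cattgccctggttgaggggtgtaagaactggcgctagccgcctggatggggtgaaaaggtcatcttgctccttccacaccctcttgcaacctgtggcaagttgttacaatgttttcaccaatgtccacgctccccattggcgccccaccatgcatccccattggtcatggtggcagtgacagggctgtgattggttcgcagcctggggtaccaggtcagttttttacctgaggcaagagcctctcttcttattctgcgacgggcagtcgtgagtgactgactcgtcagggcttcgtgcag
Syce2, chr8:84871861-84872160, plus strand: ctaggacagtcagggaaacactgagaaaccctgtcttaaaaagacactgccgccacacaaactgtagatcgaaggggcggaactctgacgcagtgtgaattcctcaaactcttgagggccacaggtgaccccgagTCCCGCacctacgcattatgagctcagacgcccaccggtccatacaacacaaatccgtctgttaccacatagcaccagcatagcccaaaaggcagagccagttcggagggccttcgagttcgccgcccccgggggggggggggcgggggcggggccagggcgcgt
Mei4, chr9:81863420-81863719, plus strand: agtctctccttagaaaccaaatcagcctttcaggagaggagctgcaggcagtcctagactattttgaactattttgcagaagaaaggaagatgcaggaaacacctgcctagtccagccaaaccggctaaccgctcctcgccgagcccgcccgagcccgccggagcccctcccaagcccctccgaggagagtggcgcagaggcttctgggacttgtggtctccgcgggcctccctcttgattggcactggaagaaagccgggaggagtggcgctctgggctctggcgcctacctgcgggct
Stag3, chr5:138280259-138280558, plus strand: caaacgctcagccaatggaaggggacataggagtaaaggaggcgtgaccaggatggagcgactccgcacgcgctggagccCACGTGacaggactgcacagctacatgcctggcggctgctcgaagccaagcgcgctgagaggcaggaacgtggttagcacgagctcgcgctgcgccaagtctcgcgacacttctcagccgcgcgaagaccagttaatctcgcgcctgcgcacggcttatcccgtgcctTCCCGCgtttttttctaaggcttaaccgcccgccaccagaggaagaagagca
Dmc1, chr15:79605060-79605359, minus strand: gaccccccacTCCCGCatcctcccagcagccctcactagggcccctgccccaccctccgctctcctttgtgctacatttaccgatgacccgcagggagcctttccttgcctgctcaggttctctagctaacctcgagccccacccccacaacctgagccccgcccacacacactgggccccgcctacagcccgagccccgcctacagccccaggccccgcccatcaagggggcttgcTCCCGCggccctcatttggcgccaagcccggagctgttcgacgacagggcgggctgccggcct
Promoters were at hand for 33 of the 41 members. A member was counted when any of its promoters held the letters, and all 27025 genes with a promoter were counted in the same way. E2F letters were present in 21 of the 33 members (63.6%), against 22.05% of all genes (19.98% of 32851 promoters of the same length). E-box letters were present in 8 of 33 (24.2%, against 8.09% of genes and 7.15% of promoters). The letters CNCCTCAG, a motif known for STRA8, were in 8 of 33 (24.2%, against 9.12% of genes and 7.94% of promoters), and the MYB core letters CAGTT were in 12 of 33 (36.4%, against 48.2% of genes and 44.8% of promoters), both strands searched in each case. Member promoters were richer in G and C (median 60.7%, against 52.7% over all promoters). Among the 18 member promoters with 55.9% to 65.3% GC, 14 held E2F letters (77.8%), against 30.9% of 7439 promoters in that range. E2F letters stood in the promoters of genes that rose under dTAG13 (Meioc, Rec8, Hormad1) and of genes that fell (Syce2, Stag3, Dmc1), and the Stra8 and Mei4 stretches held neither E2F nor E-box letters. Syce2 has a second listed start, 147 bases inside its span, whose stretch (not shown) also held E2F letters and, unlike the one shown, E-box letters. A match of letters is a description and not a binding site.

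In testis, Tex10 itself read 79.1 and 44.1 in the WT libraries and 29.8 and 27.3 in the cKO libraries, a log2 fold change of -1.02 (SE 0.214, limma with Benjamini-Hochberg adjustment over all genes, adjusted p = 0.00318). Both cKO libraries lay below both WT libraries, and the WT libraries differed from each other more than the cKO libraries did. Markers of other cell types moved with genotype. All 10 Sertoli markers rose, with summed levels of 683 to 796 in WT and 1937 to 2288 in cKO, as did 8 of 9 Leydig markers (331 to 443 in WT, 800 to 1388 in cKO), 4 of 6 tested macrophage markers (52.3 to 59.6 in WT, 96.3 to 148 in cKO) and 4 of 9 spermatogonial markers (167 to 182 in WT, 245 to 270 in cKO). Markers of later germ cells fell: 7 of 8 for round spermatids (1560 to 1899 in WT, 1056 to 1093 in cKO), 7 of 8 for elongating spermatids (22256 to 24835 in WT, 16172 to 16924 in cKO) and 3 of 8 for late prophase spermatocytes (6090 to 6785 in WT, 4810 to 5419 in cKO). Of 4 peritubular markers 2 rose (34.1 to 40.2 in WT, 59.5 to 73.6 in cKO), and of 4 endothelial markers Cdh5 rose and Tek fell. Of 4 primordial germ cell markers tested 1 rose (341 to 392 in WT, 426 to 427 in cKO). Of 2 epiblast-like markers tested 0 were called (4.62 to 5.81 in WT, 8.51 to 11.1 in cKO). No listed marker with a row was at 0 in every library. The part of this shift in each result below was not tested. In bulk testis, fewer cells of a type and less RNA per cell cannot be told apart.

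The meiotic prophase genes stayed, as a set, close to all genes in the cKO testis while single members moved in both directions. Stra8, Hormad1, Dmc1, Msh5 and Rnf212 rose in cKO, and Smc1b, Ankrd31, Tex15 and Terb1 fell. That is 9 of the 40 members tested (22.5%, 5 higher and 4 lower), where 29.1% of all 20658 genes tested were called (16.1% higher, 13.1% lower), a share near that of the members, from which nothing particular to them is read. The balance of directions depended on the fit: the 5 upward calls were lost with quantile normalization and with DESeq2 (3 members called in each, all lower) and without either cKO library (2 called in each, both lower), while without the variance trend the 2 members called were both higher. The median log2 fold change was 0.04 over the members and 0.01 over all genes. The WT and cKO libraries did not overlap for 22 of 40 members (13 higher and 9 lower in cKO), and for 66.3% of all genes (34.8% higher, 31.5% lower). The summed level of the members was 1835 to 1977 in WT and 1688 to 1811 in cKO. The authors' deposited table held an FDR under 0.05 for the same 9 members in testis. The share of all genes under that FDR was not counted. With edgeR on the recovered reads, 7 members were called (3 higher and 4 lower), without Msh5 and Rnf212.

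**Figure D1:**
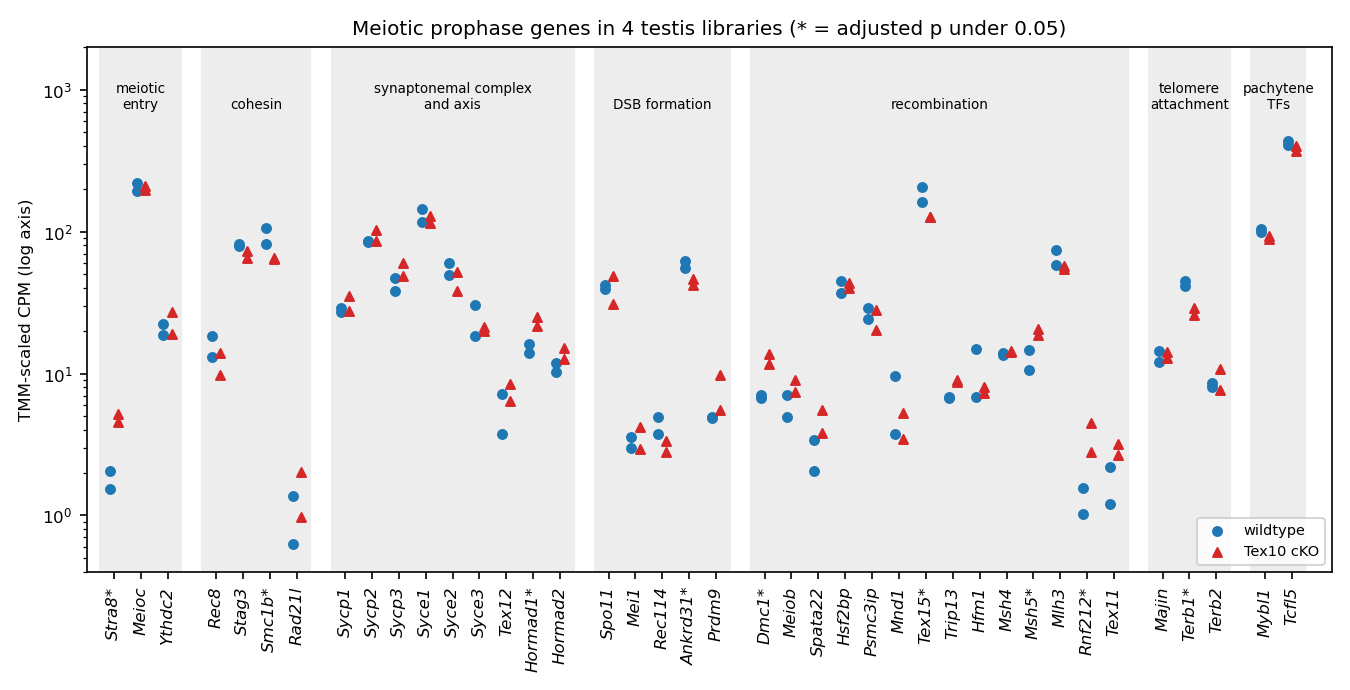
TMM-scaled CPM (log axis) of 40 meiotic prophase genes in 2 wildtype (circles) and 2 Tex10 cKO (triangles) testis libraries, grouped by role, not divided by gene length; an asterisk marks adjusted p under 0.05. The cKO points lie above both WT points for Stra8 (4.57 and 5.15 against 1.54 and 2.04) and below them for Terb1 (25.7 and 29.1 against 41.6 and 44.7), while Meioc overlaps.

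Per kilobase of exon in WT testis, the most abundant members were Tcfl5 (133 TMM-scaled CPM per kb), the synaptonemal complex gene Syce1 (89.6), Meioc (45.0), Syce3 (44.3) and Sycp3 (33.6). The least abundant were Tex11, which supports crossover formation and is the only member on the X chromosome (0.469 per kb), Rad21l (0.602), Mei1 (0.694), Rnf212 (0.788) and Stra8 (0.993). Replicates of one genotype differed by a median absolute log2 value of 0.255 in WT and 0.205 in cKO over the members, and by 0.231 and 0.203 over all genes.

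Among the genes of meiotic entry, Stra8 rose. Its values were 1.54 and 2.04 in WT and 5.15 and 4.57 in cKO, from 9 and 13 reads in WT and 37 and 36 in cKO. Both cKO libraries were above both WT libraries, and the log2 fold change was 1.08 (SE 0.327, limma adjusted p = 0.0243). Meioc, at 194 and 221 in WT and 198 and 208 in cKO, overlapped between genotypes (log2 fold change -0.03, SE 0.118, adjusted p = 0.878). Ythdc2 had a log2 fold change of 0.15 (adjusted p = 0.618) and also overlapped.

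Of the 4 cohesin genes, Smc1b, the meiotic SMC1 subunit, fell. It read 81.5 and 107 in WT and 64.6 and 65.1 in cKO, with no overlap (log2 fold change -0.52, SE 0.144, limma adjusted p = 0.0159). Smc1b overlaps Fam118a in the annotation (chr15:85064689-85131957, GRCm38), so reads may be shared. Stag3, which binds the ring as its STAG subunit, read 79.4 and 82.2 in WT and 65.3 and 72.6 in cKO. Its groups did not overlap, but the difference missed the threshold (log2 fold change -0.23, SE 0.129, adjusted p = 0.203). The kleisins Rec8 (-0.39) and Rad21l (0.32) overlapped between genotypes, and Rad21l rested on 4 to 16 reads a library.

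In the synaptonemal complex and axis group, 1 of 9 genes was called, against 29.1% of all genes (16.1% higher). Hormad1, an axis protein that promotes break formation and homolog pairing, rose from 16.1 and 14.0 in WT to 21.5 and 25.03 in cKO (log2 fold change 0.60, SE 0.195, limma adjusted p = 0.0340), with no overlap. Sycp3, the main lateral element protein, also separated the genotypes (46.9 and 38.1 in WT, 60.3 and 48.7 in cKO) but did not pass (log2 fold change 0.35, adjusted p = 0.116). Syce1, a central element protein, had the smallest difference at 118 and 144 in WT and 116 and 129 in cKO (log2 fold change -0.09, SE 0.132, adjusted p = 0.641). The other members of the group lay between -0.28 (Syce2) and 0.41 (Tex12).

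Of the 5 genes of double-strand break formation with a testis row, Ankrd31, a partner of Rec114 in the break machinery, fell from 62.0 and 55.6 in WT to 46.2 and 42.1 in cKO (log2 fold change -0.40, SE 0.142, limma adjusted p = 0.0457). Its genotypes did not overlap. Spo11, the break-forming enzyme, read 39.2 and 42.4 in WT, and its cKO libraries lay on both sides, at 31.1 and 48.5 (log2 fold change -0.07, SE 0.189, adjusted p = 0.822). Prdm9, the hotspot-marking methyltransferase, read 4.97 and 4.87 in WT and 5.57 and 9.78 in cKO. The cKO libraries were both higher, and their spread left the difference short of the threshold (log2 fold change 0.51, SE 0.310, adjusted p = 0.238). Rec114 (-0.39) and Mei1 (0.08) were not called.

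Recombination genes gave 4 calls among 14, 3 of them upward, where 29.1% of all genes were called (16.1% higher). Nothing particular to the group is read from this count. Dmc1, the meiotic recombinase, rose from 6.68 and 7.06 in WT to 11.7 and 13.7 in cKO (log2 fold change 0.80, SE 0.247, limma adjusted p = 0.0263). Msh5, a subunit of the MutS-gamma complex that stabilises crossover intermediates, rose from 10.6 and 14.6 to 18.7 and 20.6 (log2 fold change 0.61, SE 0.218, adjusted p = 0.0476). Rnf212, a crossover-promoting ligase, read 1.03 and 1.57 in WT and 2.79 and 4.45 in cKO, from 6 and 10 against 20 and 35 reads. It stood at the edge of the threshold (log2 fold change 0.99, SE 0.356, adjusted p = 0.049996). For each of these 3 genes both cKO libraries were above both WT libraries.

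Tex15, needed for loading of the recombinases onto breaks, fell from 162 and 205 in WT to 128 and 126 in cKO (log2 fold change -0.52, SE 0.132, limma adjusted p = 0.0096). Hsf2bp, which brings BRCA2 to meiotic breaks, showed the smallest difference of the group at 37.0 and 44.6 in WT and 40.0 and 43.3 in cKO (log2 fold change 0.03, SE 0.154, adjusted p = 0.892). Msh4, the partner of Msh5, read 14.0 and 13.5 in WT and 14.1 and 14.5 in cKO (log2 fold change 0.05, adjusted p = 0.888). The other 8 recombination genes lay between -0.43 (Mnd1) and 0.62 (Spata22) and were not called.

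In the telomere attachment group, Terb1 fell from 41.6 and 44.7 in WT to 29.1 and 25.7 in cKO (log2 fold change -0.64, SE 0.156, limma adjusted p = 0.0080), the largest decrease among the members tested. Its partners overlapped between genotypes: Majin read 12.2 and 14.4 in WT and 14.2 and 13.0 in cKO (log2 fold change 0.03, SE 0.219, adjusted p = 0.932), and Terb2 had a log2 fold change of 0.12. The transcription factors Mybl1 (104 and 98.9 in WT, 88.2 and 93.5 in cKO) and Tcfl5 (405 and 438 in WT, 369 and 399 in cKO) were lower in both cKO libraries. Neither passed the test (log2 fold changes -0.16 and -0.13, SE 0.122 and 0.116, adjusted p = 0.364 and 0.413).

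**Figure D2:**
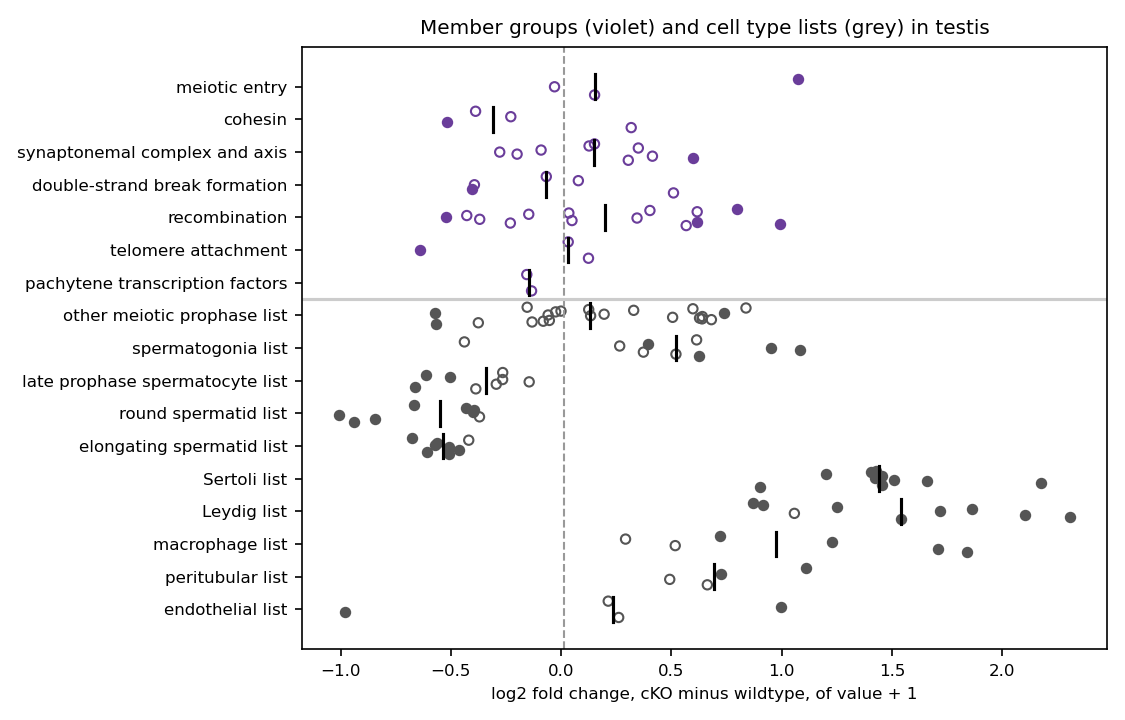
Log2 fold change (cKO minus wildtype, of value + 1) of each gene in the 7 member groups (violet) and 10 further gene lists (grey). The grey lists hold other meiotic prophase genes and cell type markers. Filled points passed adjusted p under 0.05, black bars are medians and the dashed line is the median of all genes. Member group medians lie between -0.31 (cohesin) and 0.20 (recombination), the Sertoli and Leydig medians at 1.44 and 1.54 and the spermatid medians at -0.55 and -0.54.

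The testis calls were sensitive to single libraries, in p more often than in size. With 1 library left out, 6 members were called without WT replicate 1, 7 without WT replicate 2, 2 without cKO replicate 1 and 2 without cKO replicate 2, and these fits compare 2 libraries with a lone one. Terb1 was lost without cKO replicate 2 (adjusted p = 0.0507), Tex15 without WT replicate 2 (0.0625), and Smc1b without WT replicate 2 (0.135) and cKO replicate 1 (0.0511). Without WT replicate 2 the Smc1b log2 fold change was -0.33 in place of -0.52, and without WT replicate 1 that of Msh5 was 0.40 in place of 0.61; no other fold change of a called member moved by over 1.5 times with 1 testis library left out. Stra8, Dmc1, Ankrd31, Msh5 and Rnf212 were each lost without WT replicate 1 (0.0685, 0.0527, 0.168, 0.227 and 0.144), cKO replicate 1 (0.153, 0.0700, 0.0936, 0.103 and 0.0741) or cKO replicate 2 (0.0751, 0.165, 0.221, 0.185 and 0.323). Hormad1 was lost without WT replicate 2 (0.117), cKO replicate 1 (0.0643) or cKO replicate 2 (0.204). Of another 22 meiotic prophase genes tested, 4930447C04Rik rose (log2 fold change 0.74, adjusted p = 0.0182) and 4930432K21Rik (-0.57, adjusted p = 0.0061) and the kinase Plk1 (-0.57, adjusted p = 0.00819) fell, and their median was 0.13.

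PGCLCs model germ cells at a stage before meiotic entry, and their tables give a side view of the same genes. Levels from different tables were scaled separately and are not compared across them. With dTAG13 and its controls, 33 of the 41 members had a mean of at least 1 and were tested. The other 8 (Rad21l, Sycp2, Tex12, Spo11, Mei1, Meiob, Spata22 and Rnf212) had means of 0.0616 (Spata22) to 0.986 (Sycp2).

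Between untreated EpiLCs and day 4 DMSO cells, Stra8 rose most and Meioc fell most among the members. Of 33 members, 15 were called (45.5%, 8 higher and 7 lower), against 34.9% of all genes (16.8% higher, 18.1% lower), and the median log2 fold change was 0.26 over the members and 0.02 over all genes. Treatment differs as well as stage, since the EpiLCs are labelled untreated and the day 4 cells had DMSO. Epiblast-like markers fell in 4 of 4 cases, and 5 of 8 primordial germ cell markers rose, among them Tfap2c (log2 fold change 3.68) and Prdm14 (2.45). Of 6 spermatogonial markers 3 rose, Kit (2.52), Id4 (2.00) and Nanos3 (1.71), the last of which is also on the primordial germ cell list. Of 7 Sertoli markers 2 rose, Aard (1.48) and Gata4 (1.00), and 2 fell, Wt1 (-5.90) and Rhox5 (-1.22), and their summed level was 151 to 160.2 in EpiLCs and 61.3 to 71.9 at day 4. Acta2 (2.19, 1 of 3 peritubular markers), Insl3 (1.97, 1 of 3 Leydig), Ldhc (1.20, 1 of 3 late prophase) and Pecam1 (0.37, 1 of 2 endothelial) also rose, and the macrophage and round spermatid lists had 1 marker each tested and 0 called (limma, adjusted p). The part of these shifts in the members' changes was not tested. Of another 19 meiotic prophase genes, 3 rose and 3 fell, the largest being Sycp2l (1.33).

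Stra8 read 0.253 and 1.44 in EpiLCs and 23.3 and 15.3 at day 4 (log2 fold change 3.51, SE 0.324, limma adjusted p = 2.1e-08). Both day 4 libraries were far above both EpiLC libraries. Smc1b rose from 8.49 and 9.31 to 27.6 and 23.9 (log2 fold change 1.43, SE 0.216, adjusted p = 2.07e-05). Mei4, which acts with Rec114 in break formation, rose from 3.04 and 2.77 to 7.52 and 10.3 (log2 fold change 1.33, adjusted p = 0.00169). Hormad2, the axis paralog of Hormad1, rose by a log2 fold change of 0.94 (adjusted p = 0.000379), and Terb1 by 0.88 (adjusted p = 0.0409), with the Terb1 call lost without EpiLC replicate 1 (log2 fold change 0.56, adjusted p = 0.330) or day 4 DMSO replicate 2 (0.300).

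In the other direction, Meioc fell from 15.7 and 17.0 in EpiLCs to 5.26 and 3.49 at day 4 (log2 fold change -1.71, SE 0.198, limma adjusted p = 6.19e-07), with both day 4 libraries below both EpiLC libraries. Tcfl5 fell by 1.00 on the log2 scale (adjusted p = 3.79e-06), Syce2 by 0.87 (adjusted p = 0.0026) and Tex15 by 0.83, from 64.3 and 67.6 to 38.1 and 35.1 (adjusted p = 6.58e-06). Syce3, near the floor at day 4 (0.644 and 0.398), had a log2 fold change of -0.87 (adjusted p = 0.0411) that was lost in every fit without 1 library (adjusted p 0.0664 to 0.189). The Syce2 call was lost without day 4 DMSO replicate 2 (0.0556). The other members called were Rec8, Stag3 and Mybl1, higher, and Ythdc2 and Trip13, lower, and each was lost without at least 1 library, with an adjusted p of up to 0.198, 0.373, 0.09962, 0.0909 and 0.0654. The Stag3 log2 fold change, 0.54 with all libraries, was 0.18 without day 4 DMSO replicate 2 and 0.90 without day 4 DMSO replicate 1. Without day 4 DMSO replicate 2, 8 members were called in place of 15, and without EpiLC replicate 2, 3762 genes were called in place of 5792.

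Under dTAG13 members moved in both directions, as did all genes. Meioc and Rec8 rose most, and Hormad1, Mybl1, Tex15 and Ythdc2 also rose on both days. Stra8, Syce2, Mei4, Smc1b, Stag3, Hormad2 and Trip13 fell on both days. At day 2, 14 of 33 members were called (42.4%, 6 higher and 8 lower), against 33.6% of 16605 genes (13.7% higher, 19.9% lower). At day 4, 18 were called (54.5%, 6 higher and 12 lower), against 41.8% (15.8% higher, 26% lower). The members' shares were not tested against those of all genes, and nothing particular to the members is read from these counts. Without the filter on low values, 10 were called at day 2 (6 higher and 4 lower) and 14 at day 4 (6 higher and 8 lower), so that at day 2 the balance of directions turned. The 13 members called on both days had the same direction on each. The share of all genes that did so was not counted, so nothing particular to the members is read from this. Prdm9 was called at day 2 alone, and Dmc1, Majin, Mnd1, Terb2 and Tex11 at day 4 alone. The authors' deposited table held an FDR under 0.05 for 8 of 14 at day 2 (not for Hormad1, Hormad2, Prdm9, Stag3, Trip13 and Ythdc2). At day 4 it did so for 13 of 18 (not for Mnd1, Terb2, Tex11, Trip13 and Ythdc2). The share of all genes under that FDR was not counted.

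The median log2 fold change was -0.20 at day 2 and -0.25 at day 4 over the members and -0.09 and -0.13 over all genes, so all-gene medians were themselves below 0. With median-ratio scaling the all-gene medians became -0.01 and -0.03. The share of all calls that were higher was then 52.0% in place of 40.7% at day 2, and 49.1% in place of 37.8% at day 4, while 13 and 15 members were called. Groups did not overlap for 25 of 33 members at day 2 (67.9% of all genes) and 23 of 33 at day 4 (68.4% of all genes). Day 4 DMSO libraries also enter the comparison with EpiLCs above.

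**Figure D3:**
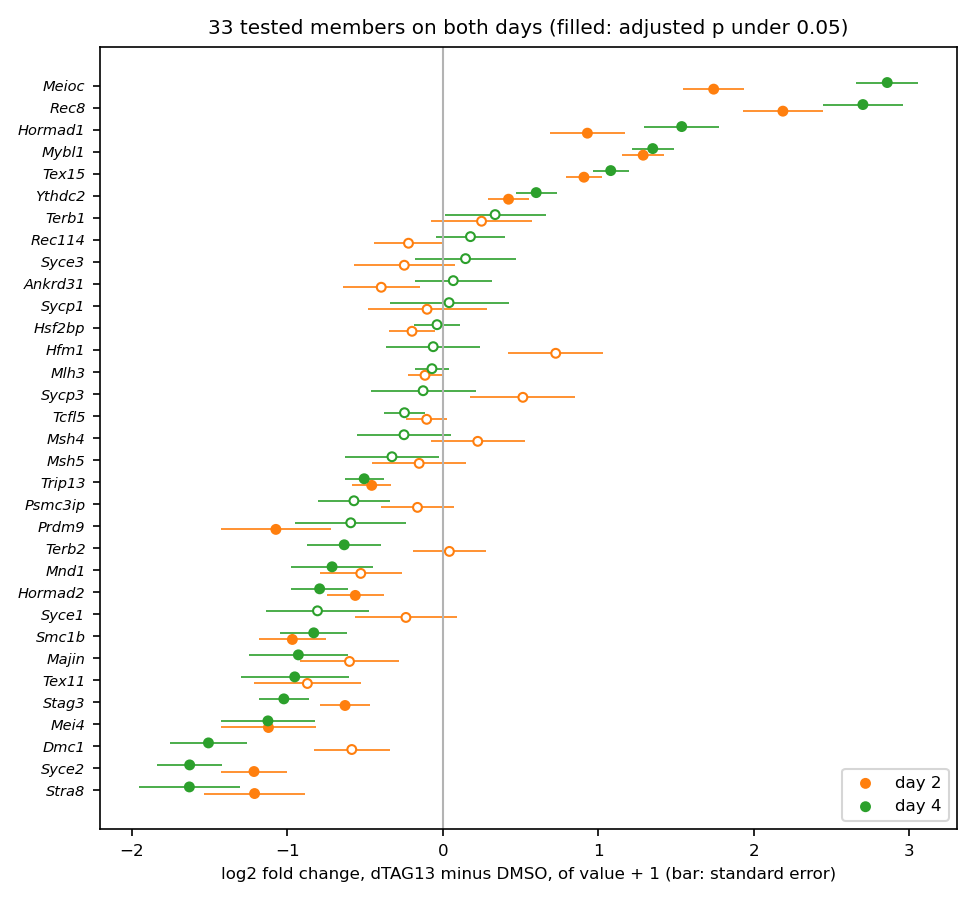
Log2 fold change (dTAG13 minus DMSO, of value + 1) with its standard error for the 33 tested members at day 2 (orange) and day 4 (green); filled points passed adjusted p under 0.05. Meioc (1.74 and 2.86) and Rec8 (2.19 and 2.70) lie at the top, Syce2 (-1.21 and -1.63) and Stra8 (-1.21 and -1.63) at the bottom.

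The genes of meiotic entry moved apart. Stra8 read 9.43 and 13.0 with DMSO and 5.28 and 3.34 with dTAG13 at day 2, and 23.3 and 15.3 against 6.60 and 4.45 at day 4. All dTAG13 libraries were below all DMSO libraries of their day (log2 fold change -1.21, SE 0.324, limma adjusted p = 0.0061 at day 2, and -1.63, adjusted p = 0.000335 at day 4), and with dTAG13 they stayed above both EpiLC libraries. Stra8 lies on chromosome 6 (chr6:34920163-34939344), whose 730 genes had a median 0.27 lower on the log2 scale than that of the other autosomes at day 2 and 0.10 lower at day 4.

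Meioc went the other way. It read 8.43 and 10.6 with DMSO and 32.5 and 35.5 with dTAG13 at day 2, and 5.26 and 3.49 against 36.1 and 38.8 at day 4, where EpiLCs had 15.7 and 17.0. The dTAG13 libraries on both days were above all EpiLC and DMSO libraries (log2 fold change 1.74, SE 0.198, limma adjusted p = 7.42e-07, and 2.86, adjusted p = 2.16e-10). Ythdc2, the helicase that works with Meioc, rose by 0.42 at day 2 (adjusted p = 0.0165) and by 0.60 at day 4 (adjusted p = 0.00085).

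Rec8, the meiotic kleisin, showed the widest separation among the cohesin genes. It read 4.02 and 4.21 with DMSO and 24.1 and 20.6 with dTAG13 at day 2, and 2.15 and 2.69 against 22.0 and 20.3 at day 4, with EpiLCs at 0.634 and 1.33. The log2 fold change was 2.19 (SE 0.257, limma adjusted p = 1.14e-06) at day 2 and 2.70 (adjusted p = 2.68e-08) at day 4. Its partners fell: Stag3 read 73.1 and 78.6 against 49.1 and 48.2 at day 2 and 67.3 and 111 against 40.0 and 44.3 at day 4 (log2 fold changes -0.63 and -1.02, SE 0.160, adjusted p = 0.0043 and 2.43e-05). Without day 4 DMSO replicate 2, the library at 111, the day 4 value was -0.66 and still called (adjusted p = 0.000512). Smc1b read 33.6 and 20.6 against 12.6 and 13.4 at day 2 and 27.6 and 23.9 against 16.4 and 11.9 at day 4 (log2 fold changes -0.97 and -0.83, SE 0.216, adjusted p = 0.00147 and 0.00372). Neither gene's groups overlapped on either day. Reads may be shared with the overlapping genes Gal3st4 and Gpc2 (Stag3) and Fam118a (Smc1b), and any such reads cannot be told apart.

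**Figure D4:**
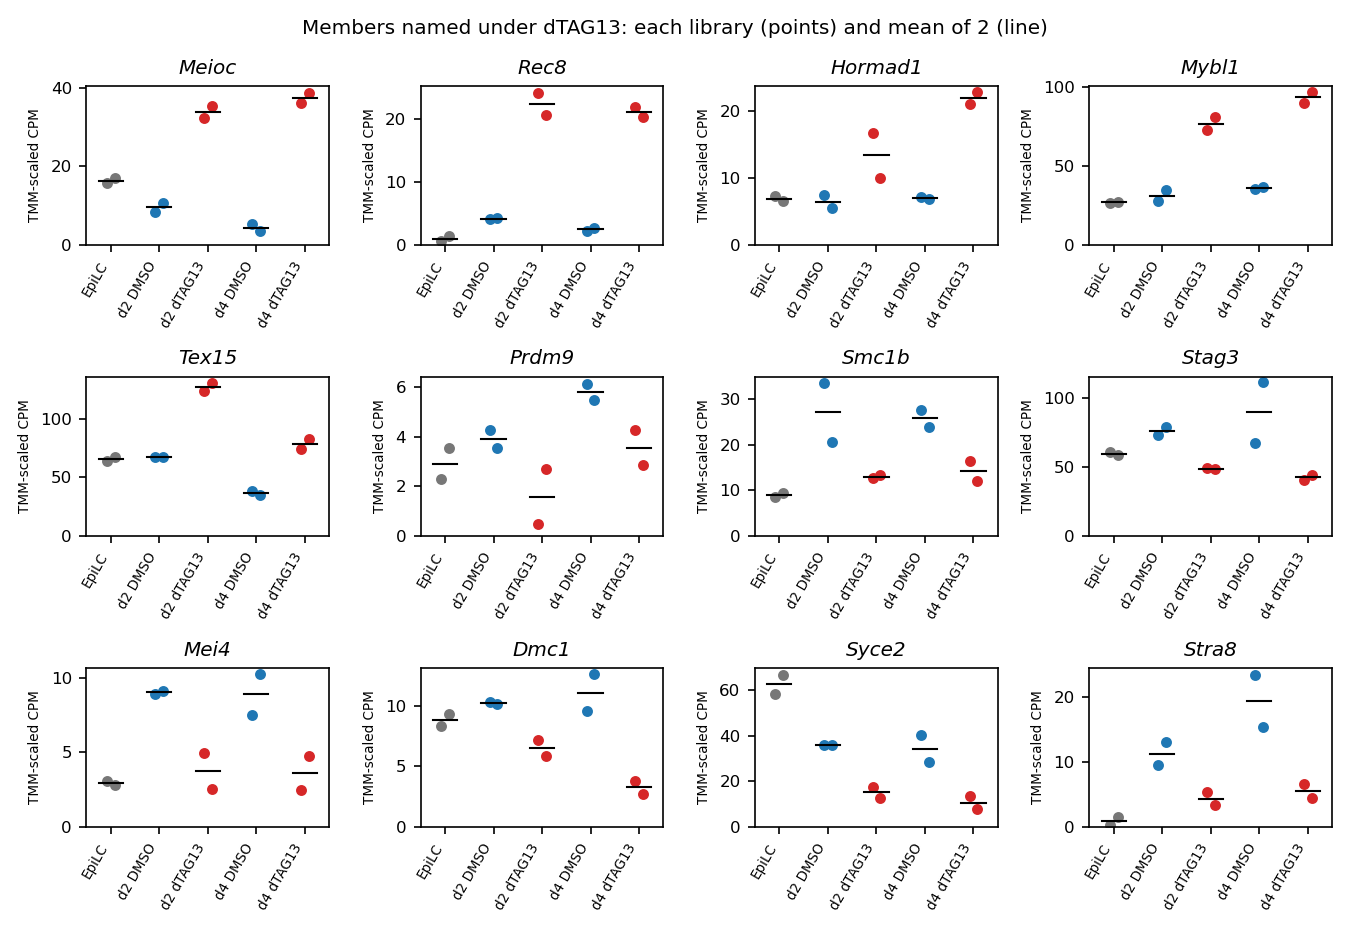
TMM-scaled CPM of members named under dTAG13 in each of 10 libraries (points), with the mean of the 2 libraries (line), for EpiLCs and for day 2 and day 4 cells with DMSO (blue) or dTAG13 (red). Meioc reaches 36.1 and 38.8 at day 4 with dTAG13 against 5.26 and 3.49 with DMSO, and Stra8 reaches 6.60 and 4.45 against 23.3 and 15.3.

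Among the axis and synaptonemal complex genes, Hormad1 rose and Syce2 fell. Hormad1 read 7.42 and 5.43 with DMSO and 16.8 and 10.03 with dTAG13 at day 2, and 7.09 and 6.77 against 21.1 and 22.9 at day 4 (log2 fold changes 0.93 and 1.54, SE 0.242, limma adjusted p = 0.00512 and 2.63e-05). Syce2, a central element protein, read 36.1 and 36.0 against 17.6 and 12.7 at day 2 and 40.2 and 28.3 against 13.3 and 7.79 at day 4 (log2 fold changes -1.21 and -1.63, SE 0.210, adjusted p = 0.000119 and 1.96e-06). On both days the libraries of the 2 treatments did not overlap for either gene. Syce2 overlaps Gcdh in the annotation (chr8:84872111-84887446), so its reads may include those of a neighbour. Hormad2 fell by 0.56 at day 2 (adjusted p = 0.0218) and by 0.79 at day 4 (adjusted p = 0.00145), opposite to its paralog.

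In break formation and recombination, Mei4 read 8.93 and 9.09 with DMSO and 4.97 and 2.54 with dTAG13 at day 2, and 7.52 and 10.3 against 2.49 and 4.77 at day 4 (log2 fold changes -1.12 and -1.13, SE 0.304, limma adjusted p = 0.00671 and 0.00492). Prdm9 read 4.28 and 3.53 against 0.466 and 2.68 at day 2 (log2 fold change -1.07, SE 0.356, adjusted p = 0.0235). The lowest of these values equals 3 reads, and without that library (dTAG13 replicate 1) the log2 fold change was -0.41 (adjusted p = 0.418). At day 4 the Prdm9 log2 fold change was -0.59 (adjusted p = 0.192). Dmc1 read 10.3 and 10.2 against 7.15 and 5.89 at day 2 and 9.56 and 12.6 against 3.81 and 2.70 at day 4. All dTAG13 values of these 3 genes at day 2 were below the DMSO values. The Dmc1 difference did not pass at day 2 (log2 fold change -0.59, adjusted p = 0.0701) and did at day 4 (-1.51, SE 0.245, adjusted p = 3.72e-05).

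Tex15 rose. It read 67.7 and 67.6 with DMSO against 124 and 131 with dTAG13 at day 2, and 38.1 and 35.1 against 74.1 and 83.1 at day 4 (log2 fold changes 0.91 and 1.08, SE 0.115, limma adjusted p = 2.9e-06 and 1.34e-07). Mybl1 rose too, reading 27.4 and 34.6 against 72.7 and 80.8 at day 2, and 35.5 and 36.6 against 90.05 and 97.1 at day 4 (log2 fold changes 1.29 and 1.35, SE 0.134, adjusted p = 1.99e-07 and 4.89e-08). For both genes every dTAG13 library exceeded every DMSO library of its day. Trip13, the ATPase that remodels HORMA proteins, fell by 0.46 at day 2 (adjusted p = 0.00696) and by 0.51 at day 4 (adjusted p = 0.00241).

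The difference between the day 4 and day 2 effects, tested in the same model, passed the threshold for 0 of 33 members (limma, 2 at an unadjusted p under 0.05), against 1.25% of all genes. The smallest p was that of Meioc, whose effect was 1.12 larger on the log2 scale at day 4 (limma adjusted p = 0.0519). The 6 members called at day 2 (Meioc, Rec8, Syce2, Tex15, Trip13 and Mybl1) and 11 called at day 4 (these without Trip13, and Stra8, Ythdc2, Stag3, Hormad1, Hormad2 and Dmc1) were called under every alternative run.

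Single libraries decided some calls under dTAG13. At day 2 Stra8 was lost without DMSO replicate 2 (adjusted p = 0.0736) or dTAG13 replicate 2 (0.0860), Smc1b without DMSO replicate 1 (0.0749), Hormad1 without DMSO replicate 2 (0.0718) or dTAG13 replicate 1 (0.125) and Mei4 without dTAG13 replicate 2 (0.124). Prdm9 was lost without either DMSO library (0.129 and 0.0539) or dTAG13 replicate 1 (0.418), and Ythdc2 and Hormad2 without DMSO replicate 1 (0.213 and 0.155) or dTAG13 replicate 1 (0.150 and 0.131). At day 4 Mei4 was lost without DMSO replicate 2 (0.0552) or dTAG13 replicate 1 (0.0967), Smc1b without dTAG13 replicate 2 (0.0737) and Trip13 without dTAG13 replicate 1 (0.0583). Majin was lost without any 1 of the 4 libraries (0.0632 to 0.0920), Terb2 without either DMSO library or dTAG13 replicate 1 (0.0948, 0.0963 and 0.285), Mnd1 without DMSO replicate 1 (0.223) or dTAG13 replicate 2 (0.251), and Tex11 without DMSO replicate 2 (0.209) or dTAG13 replicate 2 (0.378). Most of these losses came with a log2 fold change that moved by less than 1.5 times. It moved by more at day 2 for Smc1b without DMSO replicate 1 (-0.63 in place of -0.97), Hormad1 without dTAG13 replicate 1 (0.58 in place of 0.93), Mei4 without dTAG13 replicate 2 (-0.74 in place of -1.12) and Prdm9 without dTAG13 replicate 1 (given above) or 2 (-1.74, still called). At day 4 it did so for Stag3 (given above), for Terb2 without dTAG13 replicate 1 (-0.39 in place of -0.63) and for Tex11 without dTAG13 replicate 2 (-0.46 in place of -0.95) or 1 (-1.44, still called). Without day 2 DMSO replicate 1, 3615 genes were called in place of 5577.

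Of another 19 meiotic prophase genes tested under dTAG13, 1 rose and 8 fell at day 2 (median -0.33), where 33.6% of all genes were called (19.9% lower), and 9 fell at day 4 (median -0.52), where 41.8% were called (26% lower). Among them were the crossover factor Ccnb1ip1 (-1.96 at day 4, adjusted p = 1.24e-09) and the kinase Cdk2 (-0.88 and -1.12). Germ cell markers moved with treatment as well: of 8 primordial germ cell markers, Prdm14 (-1.89 and -2.08) and Prdm1 (-1.13 and -1.65) fell, and Tfap2c rose (0.69 and 1.78) on both days, with Dazl up at day 4 (0.76). Their summed level was 209 to 225 with DMSO and 223 to 230 with dTAG13 at day 2, and 183 to 204 against 271 to 277 at day 4. Markers of other cell types moved too. Of 6 spermatogonial markers tested, 4 fell at day 2 and 3 at day 4, among them Kit (-1.82 and -2.14), and the summed level was 891 to 905 with DMSO and 668 to 678 with dTAG13 at day 2, and 890 to 912 against 671 to 700.1 at day 4. Of 7 Sertoli markers tested, 2 rose and 2 fell at day 2, and 3 rose and 2 fell at day 4: Clu (1.65 and 1.67) and Dhh (1.43 and 1.32) were higher and Rhox5 (-1.51 and -1.67) and Aard (-1.37 and -0.94) lower on both days, and Wt1 was higher at day 4 (1.04). The Sertoli sum was 62.8 to 65.5 with DMSO and 55.6 to 65.1 with dTAG13 at day 2, and 61.3 to 71.9 against 52.2 to 55.8 at day 4. Of 3 smooth muscle (peritubular) markers tested, 1 was called at day 2 and 2 at day 4. Tagln rose on both days (1.56 and 4.32) and Cnn1 at day 4 (2.11), while Acta2 had log2 fold changes of -0.71 and -0.76 and was not called (adjusted p = 0.258 and 0.208), with summed levels of 16.2 to 29.04 against 52.2 to 59.9 at day 2 and 8.07 to 8.27 against 62.3 to 105 at day 4. Both endothelial markers tested, Tek (1.70 and 2.50) and Pecam1 (0.39 and 0.65), rose, with sums of 80.9 to 85.4 against 125 at day 2 and 96.8 to 103 against 174 to 175 at day 4. Of 4 epiblast-like markers, Pou3f1 rose (1.39 and 1.79), with sums of 143 to 174 against 157 to 158 at day 2 and 74.965 to 89.1 against 96.3 to 101 at day 4. At day 2 alone the Leydig marker Insl3 rose (1.13, 1 of 3 tested), and the late prophase marker Clgn (-0.56, 1 of 3) and the round spermatid marker Acrbp (-1.02, the only one tested) fell. The 1 macrophage marker tested was not called. The part of these shifts in the members' changes was not tested.

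With Tex10 overexpression, 2 of 32 members tested were called (6.25%, both higher), Rec114 and Hsf2bp, against 8.76% of all 15255 genes tested (4.54% higher, 4.22% lower), a share near that of the members, from which nothing particular to them is read. The median log2 fold change was 0.07 over the members and 0.01 over all genes. Tex10 itself read 145 to 213 in EV and 330 to 654 in the clones. The fit had the stage as a term, so that stages stand in for replicates of 1 EV line and 2 clones, and its p-values do not cover differences between independent lines. Markers of germ cells and other cell types moved as well. Of 8 primordial germ cell markers, Dazl (log2 fold change 0.74, limma adjusted p = 0.00266) and Dnd1 (0.46) rose, and the list's summed level as EpiLCs and at days 2, 4 and 6 was 73.8, 261, 245 and 216 in EV and 64.3 to 68.7, 302 to 312, 219.9 to 220.3 and 247 to 248 in the clones. Of 7 Sertoli markers, Rhox5 (0.85) and Aard (0.46) rose, with sums of 119, 32.9, 53.2 and 64.0 in EV and 105 to 115, 29.7 to 36.6, 63.0 to 67.01 and 80.7 to 84.0 in the clones. Gfra1 (-0.75, 1 of 8 spermatogonial markers), Tagln (-0.68, 1 of 2 peritubular) and Clgn (-0.46, 1 of 2 late prophase) fell. No marker of the epiblast-like (4 tested), Leydig (3), endothelial (2), macrophage (1) and round spermatid (1) lists was called. The part of these shifts in the members' values was not tested.

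Rec114, a core break-forming protein, read 2.55, 1.01, 2.299 and 2.26 in EV as EpiLCs and at days 2, 4 and 6. Clone 1 had 2.68, 2.31, 5.01 and 7.81, and clone 2 had 2.47, 2.72, 7.47 and 5.82. It was higher than EV in 7 of 8 clone libraries, the exception being clone 2 as EpiLCs (log2 fold change 0.80, SE 0.208, limma adjusted p = 0.0141). Rec114 overlaps Nptn in the annotation, so reads may be shared. Shared exon bases were not measured. Hsf2bp read 48.4, 26.0, 29.7 and 41.9 in EV, 64.0, 40.8, 49.3 and 47.2 in clone 1 and 57.8, 41.2, 37.5 and 45.6 in clone 2. It was higher in 8 of 8 clone libraries (log2 fold change 0.41, SE 0.0892, adjusted p = 0.0033). Without clone 1 neither passed (adjusted p = 0.0900 and 0.106), and without clone 2 Rec114 did not (0.120).

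**Figure D5:**
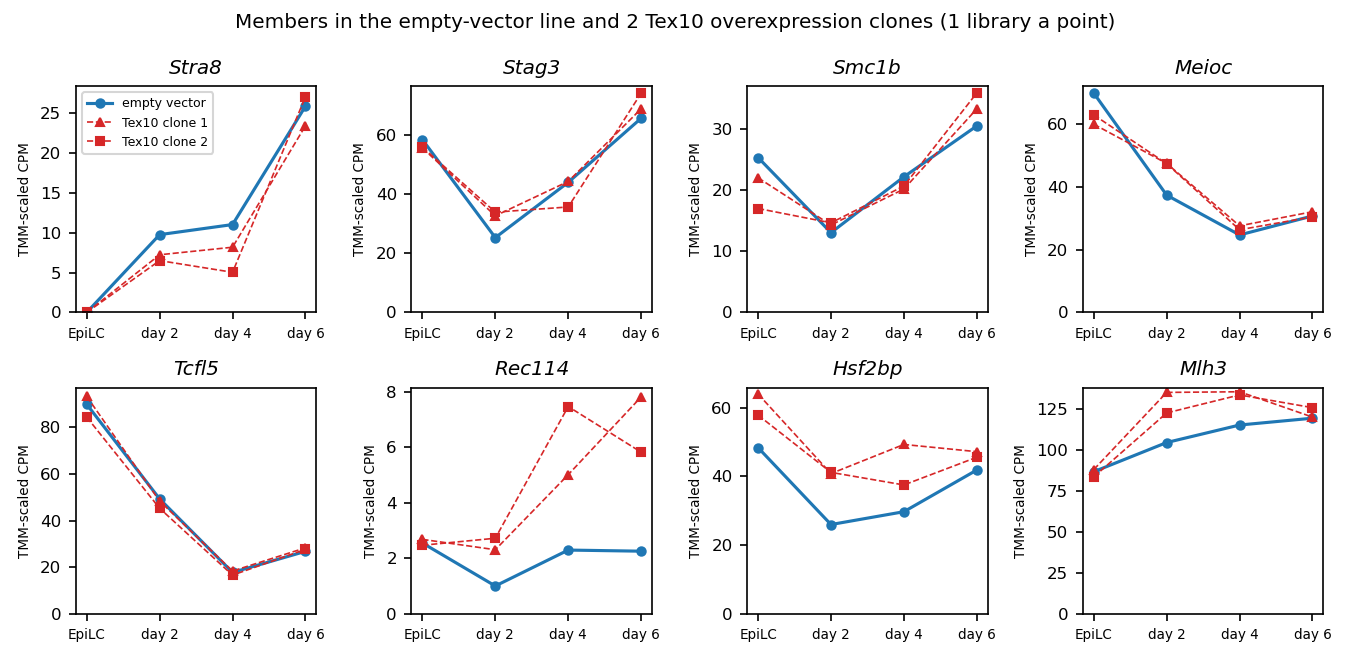
TMM-scaled CPM of 8 members in the empty-vector line (blue) and 2 Tex10 overexpression clones (red) over 4 stages (EpiLC, then days 2, 4 and 6), with 1 library a point. Stra8 climbs from 0 to 25.9 in the empty-vector line and to 23.4 and 27.1 in the clones, and Rec114 reaches 7.81 and 5.82 in the clones at day 6 against 2.26.

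The 12 members described one by one under dTAG13 were not among those called here. Mei4 had the largest difference of the 12 between the clones and EV, a log2 fold change of 0.55 (SE 0.220, limma adjusted p = 0.128), and was higher than EV in 7 of 8 clone libraries. It read 2.40, 8.62, 6.74 and 1.36 in EV as EpiLCs and at days 2, 4 and 6, 4.32, 9.86, 8.02 and 3.91 in clone 1 and 3.98, 10.9, 4.29 and 8.15 in clone 2. The log2 fold change was 0.07 for Meioc, Stag3 and Syce2, 0.23 for Rec8, -0.22 for Mybl1, -0.01 for Hormad1, -0.04 for Tex15 and Smc1b, 0.0028 for Dmc1, -0.35 for Prdm9 and -0.30 for Stra8. Stra8 was listed at 0 in EpiLCs of all 3 lines and read 9.77, 11.04 and 25.9 in EV at days 2, 4 and 6. Clone 1 had 7.24, 8.19 and 23.4 and clone 2 had 6.51, 5.04 and 27.1 at these days, so that the clones lay below EV at days 2 and 4 and on both sides of it at day 6. Of another 17 meiotic prophase genes tested, 3 rose and 1 fell, where 8.76% of all genes were called (4.54% higher, 4.22% lower). Among those that rose were Zcwpw1, a reader of the marks left by Prdm9 (0.38, limma adjusted p = 0.0250), and Fignl1 (0.20, adjusted p = 0.0224). The gene that fell was 4930447C04Rik (-0.56, adjusted p = 3.52e-06).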

How the data were processed

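RNA-seq values of 26 samples in 3 tables were analysed. Bowtie2 2.3.4.3, SAMtools 1.9, HTSeq 0.11.2, edgeR 3.26.8 and the build mm10 are named in the submitters' processing notes, with no roles stated. Libraries were made with a NuGEN Ovation kit (dTAG13 and testis) or a Tecan Universal Plus mRNA kit (overexpression), per the labels' protocols, and the strand setting of the counting is not given in the sources used here.

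The values deposited for each sample are a signal scaled by the authors with TMM, per the file headers and table names. The authors' deposited log2 fold changes with their p-values and FDR stand in the same tables, and only the FDR was used, to count members. Within each library the deposited signal values were whole multiples of 1 step: 100% came out as whole reads within 0.02 steps, so the unit is CPM on a TMM-scaled library size. In day 4 DMSO replicate 2 this step was so near 0.1 that rounding could give the same pattern, and nothing was done differently for it.

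Genes with a table mean of at least 1 were tested with limma 3.58.1 (R 4.3.3, trended variance) on log2(value + 1), with Benjamini-Hochberg adjustment over all genes of the table. Fold changes are on that scale, which understates those of low genes. Calls required an adjusted p below 0.05. All 10 libraries of the dTAG13 table shared 1 fit, with a term for the difference between days added after the data were seen. The overexpression fit had stage as a term. The test was checked on reads simulated with a fixed dispersion. A log2 fold change of 1 was recovered for 52.5% of changed genes in testis and 93.8% for overexpression. It was recovered for 67.7% and 64.3% under dTAG13 at day 2 and day 4, and 63.3% for day 4 DMSO against EpiLCs. A log2 fold change of 2 was recovered for 92.7% in testis. A gene not called may therefore still differ. edgeR 4.0.16 on the recovered reads called 5908 genes in testis, 5137 and 6544 under dTAG13 at day 2 and day 4, 6004 for day 4 DMSO against EpiLCs and 1320 for overexpression.

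Values are given for every testis member called and, in each role group, for the members with the largest and smallest absolute log2 fold change; in the cell tables for members called, limited to the 5 largest each way where more than 10 were. Further members stand in ranges or were named after their values were seen. The members, gene lists and tests were chosen with earlier results of these data known. Exon lengths came from GENCODE M21, promoters and overlaps from RefSeq on GRCm38. Of the 41 members, 26 overlap another RefSeq gene, and their values are uncertain where reads could be shared. Alternatives were the pseudocount, the low-value filter, median-ratio scaling, edgeR, a replicate block and leaving out each library, and for testis also quantile normalization, no variance trend, DESeq2 1.42.0 and a fold minimum. A result on 1 further gene of the lists is not reported here.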

Additional observations from a re-analysis of the deposited data

How the results depend on the processing

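In testis, 9 members and 6016 genes were called. The members called were 3 with quantile normalization and 3 with DESeq2 (all lower), 2 without the variance trend (both higher) and 1 with a log2 fold minimum of 1 in either direction, and 2 to 7 with 1 library left out. The genes called were 2135 without the variance trend (77.8% higher, against 55.1%), 1978 with the fold minimum, 4373 with DESeq2 and 3199 to 6119 with 1 library left out. Each of the 9 calls was lost in at least 1 of 12 alternatives: Terb1 stayed called in 10, Smc1b and Tex15 in 9, Stra8, Ankrd31 and Dmc1 in 7, Hormad1 in 6, Msh5 in 3 and Rnf212 in 2. Members near 0 changed sign, none of them called: quantile normalization gave log2 fold changes of 0.26 for Meioc, 0.096 for Syce1, -0.030 for Hsf2bp, -0.17 for Majin and 0.25 for Tcfl5, and DESeq2 gave -0.00032 for Hsf2bp and -0.0016 for Majin. With 1 library left out, Meioc ranged from -0.12 to 0.064 (0.0050 without cKO replicate 1), Syce1 from -0.23 to 0.052, Spo11 from -0.38 to 0.25, Hsf2bp from -0.097 to 0.17 and Majin from -0.084 to 0.15. With 1 library left out, members called were 10 to 12 at day 2 and 14 to 15 at day 4 under dTAG13, and 8 to 14 for day 4 DMSO against EpiLCs. Genes called were then 3615 to 4190, 5351 to 6379 and 3762 to 5725. Without the low-value filter, members called fell to 10 at day 2 (6 higher and 4 lower in place of 6 and 8; Stra8, Stag3, Hormad2 and Prdm9 lost, adjusted p 0.0548 to 0.133), 14 at day 4 (6 and 8 in place of 6 and 12; Mnd1, Tex11, Majin and Terb2 lost, 0.0558 to 0.148) and 10 for day 4 DMSO against EpiLCs (5 and 5 in place of 8 and 7; Stag3, Terb1, Mybl1, Ythdc2 and Syce3 lost, 0.0526 to 0.171), with log2 fold changes unaltered and 39051 genes tested in place of 16605. For overexpression, without that filter 1 member and 642 genes were called in place of 2 and 1337. Without clone 1 or clone 2, limma called 0 to 1 members and 420 to 444 genes, and 4 and 3 members had an unadjusted p under 0.05. Apart from the alternatives named, the cause of each shift was not tested.

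With a replicate block, 9 members and 7185 genes were called in testis, 14 and 5507 at day 2, 18 and 6894 at day 4, and 15 and 5735 for day 4 DMSO against EpiLCs. Same-numbered libraries shared only a number: their deviations from the group means correlated at 0.116 in testis, -0.0246 at day 2, -0.0686 at day 4 and -0.128 for day 4 DMSO against EpiLCs, for which crossed numbers, added after the data were seen, gave 15 members and 5794 genes. The overexpression fit already compares clones with EV within each stage, through its stage term, and was not fitted with a replicate block because EV had 1 library a stage. Depth limits the rarest members, of which Rad21l, Rnf212 and Stra8 rested on 4 to 37 reads in testis, and members under a mean of 1 in culture were not tested.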
